A study of Mus musculus with 32 samples.

Results

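The OAS genes described here were 7 of the 24082 genes named on the array (Oas1a, Oas1b, Oas1g, Oas2, Oas3, Oasl1 and Oasl2), and further Oas1 paralogs on it are given with the rest of the pathway. They were taken as every probe whose gene name in the scanner files is one of these symbols, which gave 11 of 55681 probes, and 10 of the 11 passed the filter on dim probes. Oas1g passed it through the WT arrays alone (its probe was well above background on 16 of 32 arrays, and on 0 Ifnar1-/- arrays), so that it had to differ between the genotypes. Its genotype differences are given as values. Where a count of genotype differences includes Oas1g, it adds no support to that count. Each gene is described by its brightest retained probe over all 16 groups of genotype and treatment, on a log2 scale of fluorescence intensity after quantile normalization. A probe's brightness depends on its own sequence, so levels are compared between samples and not between genes.

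Bone marrow-derived macrophages (BMDMs) were grown with M-CSF, the growth factor of macrophages, from WT (C57BL/6) mice and from IFNAR1 knockout mice, written Ifnar1-/- here, which lack a chain of the type I interferon receptor in every cell. The BMDMs of each genotype were left without treatment or received 1 of 7 treatments for 6 h, namely zVAD, IFNβ, IFNβ+zVAD, IFNβ+zVAD+Nec-1, LPS, LPS+zVAD and LPS+zVAD+Nec-1. LPS (100 ng/mL by the sample labels) is the bacterial ligand of TLR4, and IFNβ (1000 U/mL by the labels) is a type I interferon. Of the inhibitors, zVAD blocks caspases and Nec-1 blocks RipK1, a kinase of the necroptosis pathway. The LPS and IFNβ doses given in the study's text differ from those in the labels. Each of the 16 groups held 2 arrays, 32 in all, and the labels do not say whether these came from separate mice or cultures, so p-values measure only the spread between arrays, which may be technical. With 2 arrays a group, precision is limited throughout.

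The OAS proteins are sensors of double-stranded RNA. Once bound to it, the active synthetases join ATP into short oligoadenylates with 2′-5′ links (2-5A), a second messenger of the antiviral response. The genes are textbook interferon-stimulated genes: type I interferon acts through its receptor to switch them on, and TLR4 can also reach some interferon-stimulated genes through IRF3 without the receptor.

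The bases before the start of each gene are shown because the members parted in their response to LPS, and these stretches were searched for letters that interferon-activated factors read. Of the 7 members, 5 were listed with a promoter in RefSeq (GRCm38.p6 assembly), at chr5:120907526-120907725 (minus strand) for Oas1a, chr5:120887614-120887813 (minus) for Oas1g, chr5:120777660-120777859 (minus) for Oas3, chr5:114923040-114923142 (plus) for Oasl1 and chr5:114896734-114896933 (plus) for Oasl2. Each is written 5′ to 3′ along the gene and covers bases -200 to -1, the last before the listed transcript start, apart from Oasl1, which covers bases -200 to -98. The 97 bases left out for Oasl1 lie inside the gene's longest model, as do the last 19 of Oas1a, 25 of Oas3 and 8 of Oasl2. Capitals mark GAAANNGAAA, the core of the interferon-stimulated response element, or AANNGAAA, the shorter letters of an interferon regulatory factor, on either strand.
Oas1a: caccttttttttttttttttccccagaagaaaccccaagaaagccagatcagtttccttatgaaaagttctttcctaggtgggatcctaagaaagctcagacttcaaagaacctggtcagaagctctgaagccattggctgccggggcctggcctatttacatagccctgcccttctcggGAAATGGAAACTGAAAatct
Oas1g: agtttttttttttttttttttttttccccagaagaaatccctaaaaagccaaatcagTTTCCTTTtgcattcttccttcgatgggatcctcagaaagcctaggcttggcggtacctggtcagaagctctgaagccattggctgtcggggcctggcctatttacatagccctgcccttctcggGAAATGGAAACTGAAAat
Oas3: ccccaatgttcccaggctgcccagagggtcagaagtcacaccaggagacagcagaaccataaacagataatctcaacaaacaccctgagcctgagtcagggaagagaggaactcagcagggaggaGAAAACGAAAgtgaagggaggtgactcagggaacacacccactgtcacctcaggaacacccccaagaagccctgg
Oasl1: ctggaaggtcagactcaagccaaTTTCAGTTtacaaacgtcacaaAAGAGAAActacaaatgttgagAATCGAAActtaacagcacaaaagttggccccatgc
Oasl2: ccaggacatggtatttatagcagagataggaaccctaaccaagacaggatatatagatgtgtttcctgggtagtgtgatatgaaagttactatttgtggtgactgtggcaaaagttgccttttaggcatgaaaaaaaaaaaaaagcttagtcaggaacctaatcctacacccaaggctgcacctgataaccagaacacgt

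The search covered the 250 bases before the start on both strands, and AANNGAAA lies inside GAAANNGAAA wherever that occurs. GAAANNGAAA was found in Oas1a (bases -20 to -11 and -14 to -5), in Oas1g (-18 to -9 and -12 to -3) and in Oas3 (-75 to -66), and 2.98% of the 32851 promoters in the table hold it. In Oas1a and Oas1g the overlapping pair makes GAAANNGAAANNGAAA, which 0.0913% of promoters hold. Oasl1 had AANNGAAA alone, at -177, -155 and -133 from the listed start, and 21.3% of promoters hold these letters. For Oasl1 the 97 bases next to that start, inside the gene's longest model, were searched too. Oasl2 had neither motif in this window. TTCNNNGAA, a STAT palindrome held by 7.02% of promoters, was found in Oas1a (-98), and GGGANNTTCC, an NF-κB motif held by 1.21%, in none of the 5. These are matches of letters and not measured sites.

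Before the results, 3 features of the arrays bear on them. The genotypes lie on different slides, each with the 8 treatments of 1 genotype and 1 replicate number, so for levels under 1 treatment genotype and slide cannot be told apart, whereas changes within a genotype are free of this. The array labelled Ifnar1-/- LPS+zVAD+Nec-1 replicate 2 went against its label: centred over the Ifnar1-/- arrays, its 15949 genes had a Pearson correlation of -0.45 with its own replicate and 0.75 with Ifnar1-/- IFNβ+zVAD+Nec-1 replicate 2, and results that rest on it are given with and without it. The share of probes well above background was 55.6% to 78.3% on WT and 45.4% to 62.1% on Ifnar1-/- arrays, with 0 saturated spots. Of 3 probes for Ifnar1, 1 gave lower log2 intensities in every Ifnar1-/- array (7.29 to 8.73) than in any WT array (9.94 to 11.88), as did a dimmer one, whereas the brightest overlapped (11.16 to 12.44 against 9.02 to 14.76). Which part of the gene is deleted is not given in the sources used here, and a probe outside it checks nothing. All 8 macrophage markers measured were above background on every array, with a summed log2 level of 19.64 to 20.08 in WT and 19.63 to 20.10 in Ifnar1-/- BMDMs. Summed neutrophil markers (4 of 5 above background on every array) ran from 11.92 to 14.75 in WT and from 13.46 to 15.29 in Ifnar1-/- BMDMs, and fibroblast markers (3 of 3) from 6.93 to 9.31 and from 9.36 to 11.23. The neutrophil marker Ly6g had a median of 10.16 in WT and 3.85 in Ifnar1-/- BMDMs, while the rest had higher medians in Ifnar1-/- BMDMs. Among macrophage markers Fcgr1 had medians of 16 and 10.44, and the rest moved less, in both directions. Summed T cell markers (2 of 4 above background on every array) ran from 12.24 to 13.47 and from 11.83 to 13.16. Siglech, of plasmacytoid dendritic cells, ran from 15.63 to 16.42 and from 15.14 to 16.02. Their part in the results was not tested, and in bulk samples fewer cells of a type and less RNA per cell cannot be told apart.

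**Figure D1:**
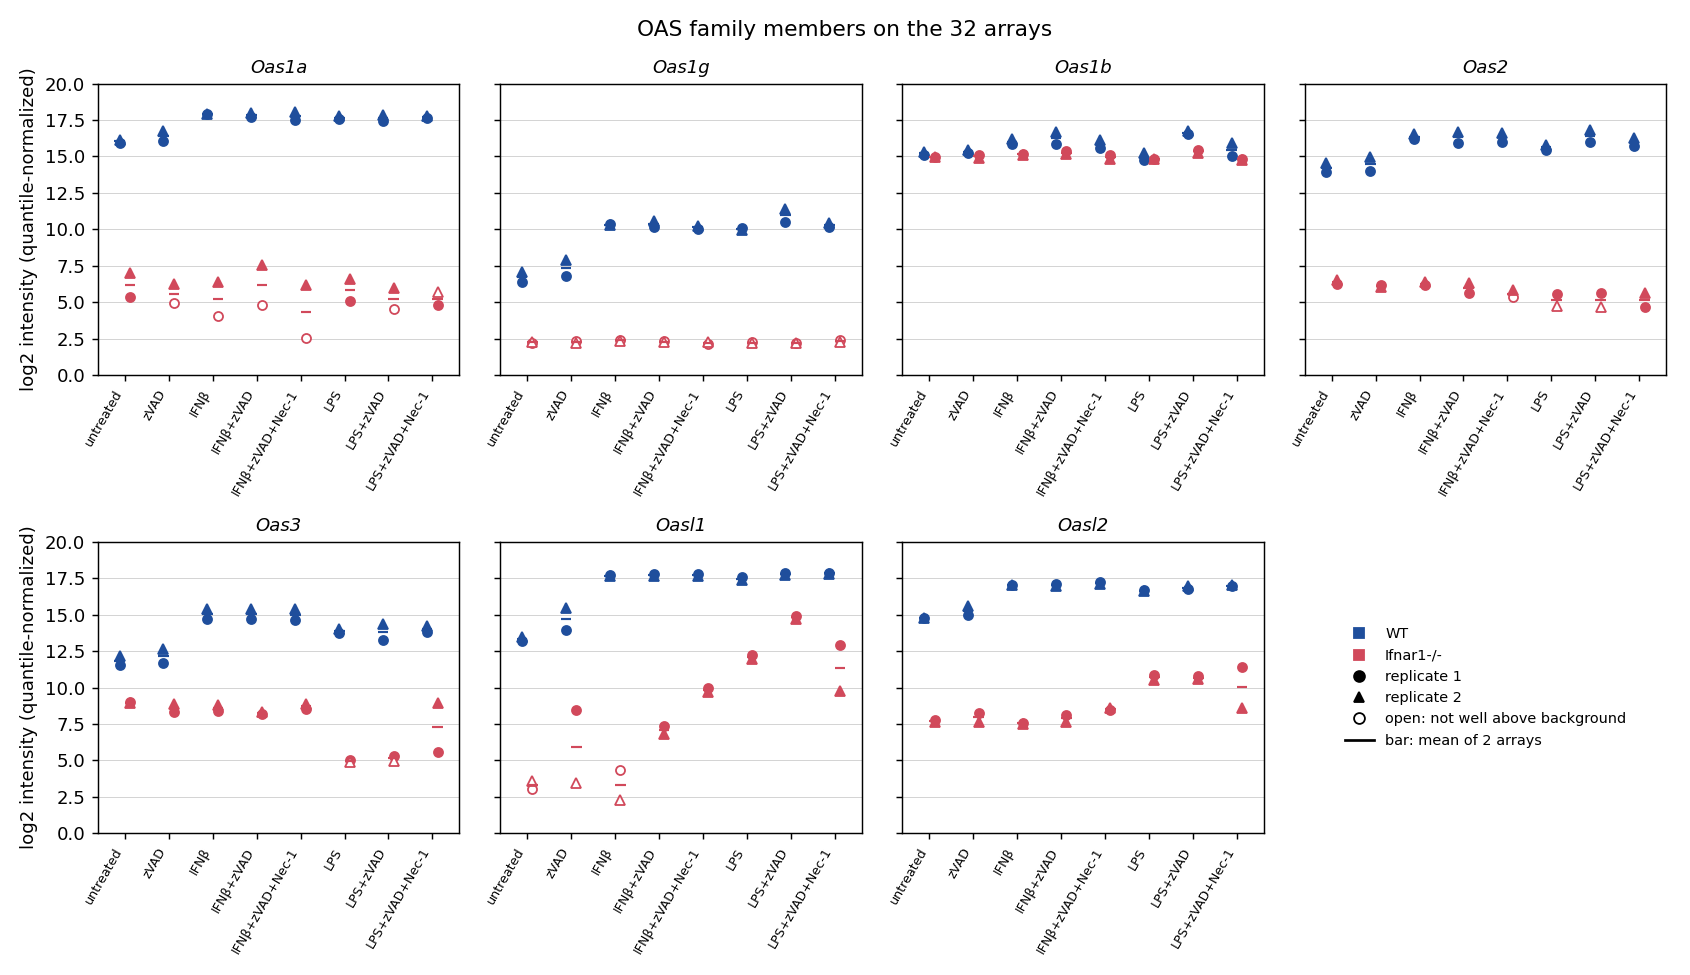
Quantile-normalized log2 intensity (y axis) of the 7 OAS family genes in 8 treatments (x axis) of WT (blue) and Ifnar1-/- (red) BMDMs; circles and triangles are the 2 arrays of a group, open symbols are not well above background, and bars are means. WT arrays lie above all Ifnar1-/- arrays in 5 panels, among them Oas1g, where the filter on dim probes fixed this, while Oas1b and Oasl1 overlap. The share of all genes with this order was not computed. Among Ifnar1-/- arrays Oasl1 and Oasl2 are higher after LPS whereas Oas3 is lower.

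Without any stimulus, 6 of the 7 members were lower in Ifnar1-/- than in WT BMDMs and 0 higher. Oas1g, whose filter fixed its difference, is counted among them and adds no support. Over all genes limma called 3.35% of 16037 lower (adjusted p under 0.05 by the Benjamini-Hochberg method). The median log2 difference of the members was -7.09, also with the 2 members that have only a bound set to it, against 0 over all genes. Oas1a read 15.91 and 16.15 on the WT arrays and 5.36 and 7.03 on the Ifnar1-/- arrays, a difference of -9.84 log2 (standard error 1.01, adjusted p = 3.02e-06). Oas2 differed by -7.88 (adjusted p = 1.09e-09), Oasl2 by -7.09 (3.19e-08) and Oas3 by -2.89 (0.00957). Oasl1 was not above background in untreated Ifnar1-/- BMDMs (3.01 and 3.60, against 13.22 and 13.49 in WT), so the difference is given as at least 581-fold (adjusted p = 5.69e-06). Oas1g was likewise not above background there and was at least 5.97-fold lower, a difference that its filter fixed. The exception, by the probe used, was Oas1b. That probe read 15.13 and 15.30 in WT and 14.96 and 14.93 in Ifnar1-/- BMDMs (difference -0.27, 95% interval -0.84 to 0.30, adjusted p = 0.667). The Oas1b probes disagreed: another read 9.57 and 9.79 in WT and 8.59 and 8.45 in Ifnar1-/- BMDMs. The remaining one overlapped (13.64 and 13.62 against 13.67 and 13.16). The Oas3 call was lost without WT untreated replicate 2 (adjusted p = 0.112) or either Ifnar1-/- untreated array (0.0617 and 0.0728). Slide and genotype cannot be told apart in any of these.

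IFNβ answered whether the receptor's ligand moved the family. In WT BMDMs 6 of 7 members rose, where 13.7% of all genes were called higher, and the members' median was 2.27 log2 against -0.17 over all genes. Oasl1, an OAS-like protein without synthetase activity that is known to limit translation of Irf7, went from 13.22 and 13.49 to 17.75 and 17.63, a 20.2-fold rise (4.34 log2, standard error 1.08, adjusted p = 0.00408). Oas1g rose 11.9-fold (3.55e-08), Oas3 9.15-fold (0.000999), Oasl2 4.82-fold (0.00168), Oas2 4.32-fold (0.00105) and Oas1b 1.74-fold (0.0284). The IFNβ-treated and untreated arrays, 2 of each, did not overlap for any of the 7 genes. The share of all genes without such overlap was not computed, so this adds nothing to the tests. Among Ifnar1-/- BMDMs limma called 0 of the 7 after IFNβ, 0 had an unadjusted p under 0.05, and 0% of all genes were called (253 at an unadjusted p under 0.05). There the log2 changes ran from -0.98 (Oas1a) to 0.19 (Oas1b).

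The response to IFNβ was smaller in Ifnar1-/- than in WT BMDMs for 4 of 7 members by a test of the difference itself, where 8.54% of all genes were called lower. These were Oas3 (-3.56 log2, adjusted p = 0.0123), Oas1g (-3.46, 1.2e-05), Oasl2 (-2.40, 0.0236) and Oas2 (-2.20, 0.0192). With the slide as a block 7 of 7 were called, Oasl1 (adjusted p = 0.0174 with the block, 0.0552 without) and Oas1a (0.00207, against 0.18) among them. Ifnar1-/- Oasl1 was not above background with or without IFNβ, and Ifnar1-/- Oas1a was below it on 1 of 2 IFNβ arrays, so no size is given for these. Without WT untreated replicate 1 the calls were lost for Oas2 (0.0834), Oas3 (0.0528) and Oasl2 (0.0595), and the Oasl2 call was lost without any 1 of the 8 arrays, with an adjusted p of up to 0.0731. Oas2 was also lost without Ifnar1-/- untreated replicate 2 (0.0626), WT IFNβ replicate 2 (0.0631) or Ifnar1-/- IFNβ replicate 1 (0.0636).

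LPS asked which members TLR4 raises, and whether it does so without the receptor. In WT BMDMs 5 of 7 members rose, where 16.3% of all genes were called higher, with a median of 1.86 log2 over the members and -0.08 over all genes. Oasl1 rose 17.5-fold (4.13 log2, standard error 1.08, adjusted p = 0.00469), Oas1g 9.57-fold (1.89e-07), Oas3 4.07-fold (0.0202), Oasl2 3.64-fold (0.00589) and Oas2 2.60-fold (0.0174). Oas1a was 1.63 log2 higher (adjusted p = 0.22) and Oas1b -0.22 (0.571). With the slide as a block Oas1a was called higher too (0.00455). By another probe each of the 2 genes was called higher, while the remaining Oas1b probe was not called (values below). The Oas2 and Oas3 calls were lost without WT untreated replicate 1 (0.138 and 0.126), Oas2 also without WT LPS replicate 2 (0.0961), and Oas3 without WT LPS replicate 1 (0.0598) or 2 (0.0889).

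Without the receptor LPS split the family, and since this contrast defines the split, its values are given as a description and its p-values support nothing. Oasl1 and Oasl2 were called higher (10.9% of all genes were), Oas3 was called lower (13.9% were), and Oas1a, Oas1b, Oas1g and Oas2 were not called. The median over the members was -0.12 log2 and over all genes -0.06. Just inside the threshold was Oasl2, at an adjusted p of 0.000334, and the member outside it with the lowest adjusted p was Oas2, at 0.0517 and lower with LPS.

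Oasl1 was not above background in untreated Ifnar1-/- BMDMs (3.01 and 3.60) and read 12.20 and 11.94 after LPS. The rise was at least 238-fold, to a level below that of untreated WT BMDMs. Oasl2, an OAS-like protein that keeps synthetase activity, went from 7.75 and 7.62 to 10.87 and 10.55, an 8.13-fold rise (3.02 log2, standard error 0.50). Its LPS-treated and untreated Ifnar1-/- arrays did not overlap, but these arrays define the split, so this adds no support. Both groups stayed below every WT array (14.76 to 17.22).

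Oas3, the largest of the synthetases, went the other way. It read 9.0 and 8.92 in untreated Ifnar1-/- BMDMs and 5.04 and 4.91 after LPS, so that 1 of the 2 LPS arrays measured it well above background. The fitted fall was 15.9-fold (-3.99 log2, 95% interval -5.39 to -2.59), whereas in WT BMDMs the same treatment took it from 11.54 and 12.17 to 13.74 and 14.02. The difference between the 2 responses was -6.01 log2 (standard error 0.94, adjusted p = 0.000632). This test holds the Ifnar1-/- arrays that define the split, so its p-value does not support the split. Oas2, a synthetase of intermediate size, read 6.22 and 6.50 in untreated Ifnar1-/- BMDMs and 5.56 and 4.72 after LPS, the last not well above background, a fitted change of -1.22 log2 (an adjusted p of 0.0102 with the slide as a block).

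Oas1a and Oas1g, the small synthetases, had no called change in Ifnar1-/- BMDMs after LPS. Oas1a went from 5.36 and 7.03 to 5.08 and 6.58 (-0.36 log2, 95% interval -2.48 to 1.75), with overlapping arrays and its replicate 2 higher on every pair of Ifnar1-/- arrays. Oas1g was not well above background on any of the 16 Ifnar1-/- arrays (2.15 to 2.41), so a response there had no measurable level. In WT BMDMs it read 6.41 and 7.09 untreated and 10.06 and 9.97 after LPS. The Oas1a probe and the Oas1g probe each list both mRNAs, so signal from the 2 genes cannot be told apart.

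The response to LPS was smaller in Ifnar1-/- than in WT BMDMs for 3 of 7 members, where 3.6% of all genes were called lower. These tests use the Ifnar1-/- untreated and LPS arrays that also define the split, so their p-values do not support it. Beside Oas3 the called members were Oas2 (-2.60 log2, adjusted p = 0.0157) and Oas1g (-3.30), whose difference is that of the WT response alone. For Oasl1 the rise was at least 7.9 log2 in Ifnar1-/- BMDMs against 4.13 in WT, and the fitted difference missed the threshold (adjusted p = 0.0777), as did that of Oasl2 (1.16 log2, 95% interval -0.33 to 2.65, 0.424). With the slide as a block 5 of 7 were called, Oasl1 (0.0226) and Oas1a (-1.99 log2, 0.0357) among them. A fit without both Ifnar1-/- LPS+zVAD+Nec-1 arrays also called 5, with Oasl1 at 0.0413 and Oasl2 at 0.0189. The Oas2 call was lost without WT untreated replicate 1 (0.0779), Ifnar1-/- untreated replicate 2 (0.061) or Ifnar1-/- LPS replicate 2 (0.0968).

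**Figure D2:**
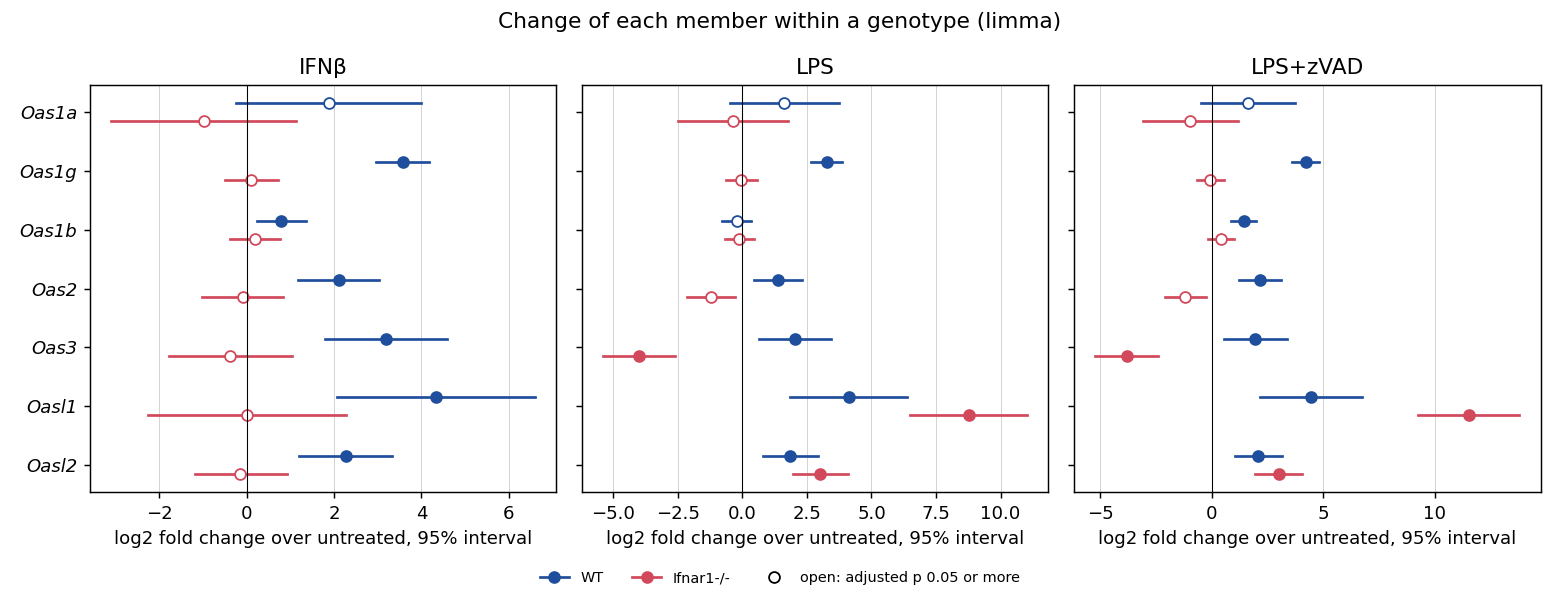
Log2 fold change over untreated BMDMs of the same genotype (x axis, with 95% intervals from limma) for each OAS family gene (y axis) after IFNβ, LPS and LPS+zVAD, in WT (blue) and Ifnar1-/- (red) BMDMs; open circles have an adjusted p of 0.05 or more. With IFNβ no Ifnar1-/- change was called, while with LPS and LPS+zVAD Oasl1 and Oasl2 lie to the right of 0 and Oas3 to the left.

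Caspase inhibition was then added. With zVAD alone limma called 0 of 7 members in WT BMDMs (0 at an unadjusted p under 0.05, with 0.00624% of all genes called in either direction) and 0 of 7 in Ifnar1-/- BMDMs (1 at an unadjusted p under 0.05, with 0% of all genes called). The member in question was Oasl1, at 8.47 and 3.42 in Ifnar1-/- BMDMs, and only the first array was above background. The response to zVAD differed between the genotypes for 0 of 7 (0 at an unadjusted p under 0.05, and 0% of all genes).

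After LPS+zVAD, 6 of 7 members rose in WT BMDMs, where 18.3% of all genes were called higher. Oas1g rose 18.3-fold (adjusted p = 3.62e-09), Oasl1 21.7-fold (0.00196), Oas2 4.45-fold (0.000455), Oasl2 4.25-fold (0.00183), Oas3 3.86-fold (0.0198) and Oas1b 2.69-fold (0.000222). With the slide as a block Oas1a was called too (1.62 log2, 0.00383). The Oas3 call was lost without WT untreated replicate 1 (0.12) or WT LPS+zVAD replicate 2 (0.173). Set directly against LPS, LPS+zVAD raised 2 of 7 in WT BMDMs (12.9% of all genes), Oas1b by 1.65 log2 (0.000123) and Oas1g by 0.94 (0.0167). The Oas1g call was lost without WT LPS replicate 2 (0.0919) or WT LPS+zVAD replicate 2 (0.284).

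Without the receptor, in a contrast that shares its untreated arrays with the one that defines the split, LPS+zVAD raised Oasl1 and Oasl2 (2 of 7, with 11% of all genes called higher) and lowered Oas3 (1 of 7, with 17.2% called lower). Oasl1 read 14.89 and 14.74, the highest of any Ifnar1-/- group and at least 1600-fold above the untreated arrays (adjusted p = 2.17e-06). These 2 arrays lay between untreated and stimulated WT arrays. Oasl2 rose 7.99-fold (0.000294) and Oas3 fell by a fitted 14.1-fold (0.000399), to 5.32 and 4.97, of which only the first was well above background. With the slide as a block 5 of 7 were called, with Oas2 (-1.19 log2, 0.0103, 1 of 2 arrays well above background) and Oas1b at 0.41 (0.0481).

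Against LPS alone, LPS+zVAD called 0 of 7 members in Ifnar1-/- BMDMs (1 at an unadjusted p under 0.05, with 8.25% of all genes called in either direction). Oasl1 was 2.74 log2 higher (95% interval 0.48 to 5.01, adjusted p = 0.134). Its 2 LPS+zVAD arrays both stood above its 2 LPS arrays. The share of all genes in such an order was not computed, so this adds nothing to the test. The block gave 0.0471 for Oasl1 and called 2 of 7, the other being Oas1b (0.53 log2, 0.0275). A fit of only the arrays compared gave 0.00676 for Oasl1.

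The difference between the genotypes in the response to LPS+zVAD was called for 4 of 7 members. These tests share the untreated Ifnar1-/- arrays with the contrast that defines the split, so their p-values do not support it. Oasl1 responded more in Ifnar1-/- BMDMs by a fitted 7.07 log2 (standard error 1.53, adjusted p = 0.00376), where 11.3% of all genes were called higher. Since its untreated Ifnar1-/- level was only a bound, the measured rise there is at least 10.64 log2, against 4.44 in WT. Oas3 (-5.77, 0.000426), Oas1g (-4.25, 4.47e-06) and Oas2 (-3.34, 0.00129) responded less, where 4.78% were called lower. All 4 kept their call without any 1 of the 8 arrays. With the slide as a block 6 of 7 were called, Oas1b (-1.02, 0.00255) and Oas1a (-2.57, 0.0047, 1 of 2 Ifnar1-/- LPS+zVAD arrays well above background) being added.

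With IFNβ+zVAD, 6 of 7 members rose over untreated BMDMs in WT (14.4% of all genes), and IFNβ+zVAD against IFNβ called 0 of 7 (0 at an unadjusted p under 0.05, 0% of all genes), with log2 differences from -0.06 to 0.25. In Ifnar1-/- BMDMs IFNβ+zVAD called 0 of 7 over untreated (1 at an unadjusted p under 0.05, 0.00624% of all genes) and 0 of 7 over IFNβ (1 at an unadjusted p under 0.05, 0.00624% of all genes). That member was Oasl1, at 7.33 and 6.82 with IFNβ+zVAD and not above background with IFNβ (4.35 and 2.27). The response to IFNβ+zVAD was smaller in Ifnar1-/- BMDMs for 4 of 7 (8.39% of all genes), Oas3 (-3.88, adjusted p = 0.00713), Oas1g (-3.55, 1.06e-05), Oas2 (-2.49, 0.00901) and Oasl2 (-2.08, 0.0472). With the block it was 6, with Oas1b (-0.73, 0.0188) and Oas1a (-1.83, 0.0295, 1 of 2 Ifnar1-/- IFNβ+zVAD arrays well above background). The Oasl2 call was lost without any 1 of the 8 arrays (up to 0.15), and the Oas1b rise in WT BMDMs (1.05 log2, 0.0051) without WT IFNβ+zVAD replicate 2 (0.117).

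With Nec-1 in addition, 5 of 7 members were called higher than untreated in WT BMDMs with IFNβ+zVAD+Nec-1 (13.3% of all genes), and the comparison with IFNβ+zVAD called 0 of 7 (0 at an unadjusted p under 0.05, 0% of all genes). In Ifnar1-/- BMDMs IFNβ+zVAD+Nec-1 raised 1 of 7 over untreated (1.15% of all genes), namely Oasl1, at 9.97 and 9.70, or at least 50.5-fold (adjusted p = 0.00267). Without Ifnar1-/- IFNβ+zVAD+Nec-1 replicate 1 the adjusted p was 0.0541. With the block 2 of 7 were called, with Oas1a added (0.0198). Oas1a read 2.52 and 6.18 in that group, the first not well above background, so its fall has no measured size. Against IFNβ+zVAD 0 of 7 were called (1 at an unadjusted p under 0.05, with 1.58% of all genes called in either direction), and with the block 1, Oas1a (0.0237), which was also not well above background on 1 of 2 IFNβ+zVAD arrays. The genotypes differed in this response for 3 of 7 (8.16% called lower), Oas1g (-3.44, 1.42e-05), Oas3 (-3.41, 0.0165) and Oas2 (-2.84, 0.00372), and with the block for 5, with Oas1a (0.000375) and Oas1b (-0.61, 0.0475) added. The Oas3 difference was lost without WT untreated replicate 1 (0.0641), Ifnar1-/- untreated replicate 1 (0.0522), WT IFNβ+zVAD+Nec-1 replicate 2 (0.0574) or Ifnar1-/- IFNβ+zVAD+Nec-1 replicate 1 (0.0565).

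LPS+zVAD+Nec-1 raised 5 of 7 members in WT BMDMs (16% of all genes). Against LPS+zVAD it lowered 1 of 7 there (9.78% of all genes), Oas1b by -1.17 log2 (adjusted p = 0.0031), from 16.54 and 16.74 to 15.04 and 15.91. That call was lost without WT LPS+zVAD+Nec-1 replicate 1 (0.0858), and the Oas3 rise over untreated (2.15 log2, 0.0144) without WT untreated replicate 1 (0.101) or WT LPS+zVAD+Nec-1 replicate 2 (0.0831). LPS against IFNβ in WT BMDMs called 1 of 7: Oas1b was lower with LPS by -1.02 log2 (0.0115), where 11.1% of all genes were lower with LPS, a call lost without WT LPS replicate 1 (0.115) or WT IFNβ replicate 2 (0.108).

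The Ifnar1-/- LPS+zVAD+Nec-1 group holds the array that went against its label. For Oasl1 the arrays read 12.90 and 9.76, for Oasl2 11.41 and 8.62, and for Oas3 5.60 and 8.93, so that in each gene the first array was close to the LPS arrays and the array labelled replicate 2 was close to those of IFNβ+zVAD+Nec-1. With both arrays, 2 of 7 members were called higher than untreated (0.549% of all genes), Oasl1 at least 143-fold (adjusted p = 0.00116) and Oasl2 5.04-fold (0.0234). Without the array labelled replicate 2 Oasl1 kept its call (2.52e-05), and the changes were 3.73 log2 for Oasl2 (5.52e-08), -3.36 for Oas3 (9.46e-05) and -1.68 for Oas2 (0.0358), which made 4 of 7. The Oasl2 call with both arrays was lost without replicate 1 (0.94 log2, 0.121) or either untreated array (0.172 and 0.193).

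Against LPS+zVAD, LPS+zVAD+Nec-1 changed Oas3 by 2.12 log2 (adjusted p = 0.0329, where 11.1% of all genes were higher) and Oasl1 by -3.49 (0.0309, where 7.65% were lower) in Ifnar1-/- BMDMs. Both calls rested on the array labelled replicate 2: without it the values were 0.46 (0.654) and -1.91 (0.377). They were also lost without either LPS+zVAD array (0.101 to 0.147). The genotypes differed in the response to LPS+zVAD+Nec-1 for 3 of 7 (7.12% of all genes lower), Oas3 (-3.85, 0.00768), Oas1g (-3.48, 2.06e-05) and Oas2 (-2.95, 0.00293). With the block 5 of 7 were called. Without the array labelled replicate 2 it was also 5, with Oas3 at -5.52, Oasl2 at 1.53 (0.00476) and Oasl1 larger in Ifnar1-/- BMDMs (0.0336) over an untreated level that is only a bound.

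Oas1a and Oas1b were each measured by more than 1 retained probe, and the choice of probe mattered. The Oas1a probe used (chr5:121346735-121346794, mm9) gave no called change in WT BMDMs, while its Ifnar1-/- replicates, as far apart as 2.52 and 6.18, entered the pooled spread. With the slide as a block the same changes were called, 1.63 log2 after LPS (adjusted p = 0.00455), 1.88 after IFNβ (0.00182) and 1.62 after LPS+zVAD (0.00383). The other Oas1a probe (chr5:121348338-121348397), which lists the Oas1a mRNA alone, read 13.85 and 14.06 untreated, 15.98 and 15.85 after LPS and 16.38 and 16.69 after IFNβ in WT BMDMs. These were rises of 1.97 (1.25e-05) and 2.58 log2 (5.48e-07). In Ifnar1-/- BMDMs it read 6.31 and 6.87 untreated and 6.06 and 6.07 after LPS (-0.52, 0.171).

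Oas1b, the mouse gene tied to flavivirus resistance, is listed by RefSeq as a transcribed pseudogene, and inbred laboratory mice such as C57BL/6 are known to carry a truncated form. Its 3 probes lie side by side on mm9 and disagreed. The probe used (chr5:121274109-121274168) stayed between 14.77 and 16.74 in WT and between 14.78 and 15.46 in Ifnar1-/- BMDMs, and its rise with IFNβ was lost without WT untreated replicate 1 (0.135) or 2 (0.0709) or WT IFNβ replicate 2 (0.188). The probe at chr5:121273890-121273949 read 9.57 and 9.79 in untreated WT BMDMs, 11.30 and 11.82 after LPS, 12.59 and 13.24 after IFNβ and 12.87 and 13.61 after LPS+zVAD, and between 7.79 and 8.85 on all Ifnar1-/- arrays. By this probe Oas1b rose by 1.88 log2 with LPS (0.00528), 3.24 with IFNβ (6.23e-05) and 3.56 with LPS+zVAD (8.67e-06). The IFNβ response was smaller in Ifnar1-/- BMDMs by 3.32 log2 (-3.32, 0.00287), and LPS gave -0.09 there (0.938). The probe at chr5:121274127-121274185, which shares a run of 42 bases with the one used, rose by 1.65 with IFNβ (0.00121) and 2.48 with LPS+zVAD (9.98e-06), and by 0.26 with LPS (0.61).

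**Figure D3:**
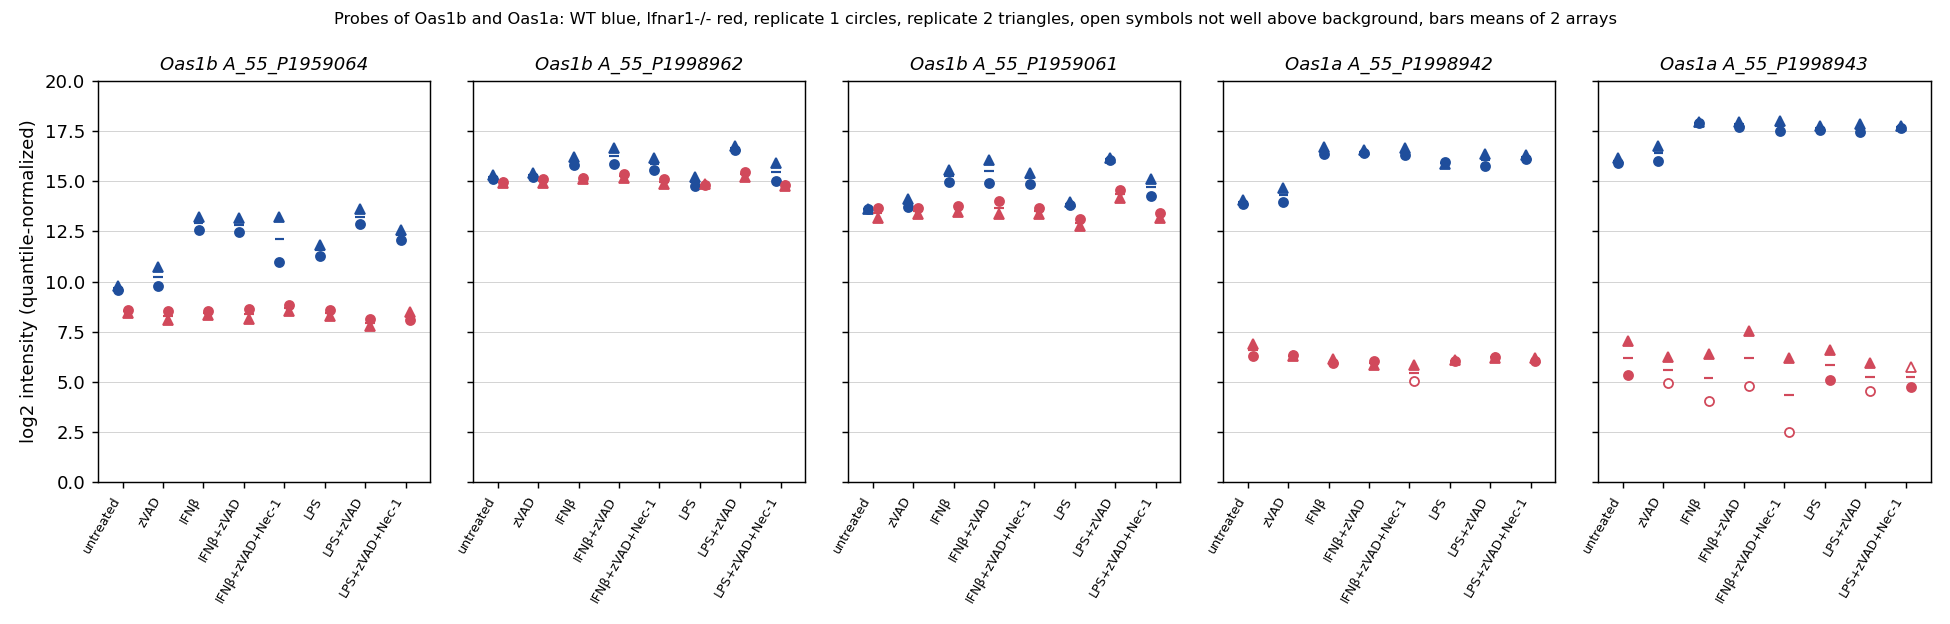
Quantile-normalized log2 intensity (y axis) of the retained Oas1a and Oas1b probes in 8 treatments (x axis) of WT (blue) and Ifnar1-/- (red) BMDMs, with the 2 arrays of a group as a circle and a triangle, open where not well above background. The genotypes are apart in both Oas1a probes and overlap in 2 of the 3 Oas1b probes.

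The remaining members had 1 probe each on mm9, at chr5:121180343-121180402 (Oas2), chr5:121203598-121203657 (Oas3), chr5:115387861-115387920 (Oasl1) and chr5:115362168-115362227 (Oasl2), while Oas1g was read at chr5:121326271-121326330. Its second probe, which lists Oas1g alone, was above background on 6 of 32 arrays and was not retained.

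Over the 16 groups the order of levels was as follows. In Oas1a, Oas1g, Oas2, Oas3 and Oasl2 every WT array was above every Ifnar1-/- array. The share of all genes with this order was not computed. For Oas1g the filter fixed it, and in all of them genotype and slide cannot be told apart. Leaving out LPS+zVAD+Nec-1, whose arrays were far apart, the Oasl2 levels of the Ifnar1-/- groups ran from untreated, zVAD, IFNβ and IFNβ+zVAD (7.52 to 8.27, overlapping), through IFNβ+zVAD+Nec-1 (8.48 and 8.57), to LPS and LPS+zVAD (10.55 to 10.87, overlapping). For Oasl1, where zVAD alone also gave arrays far apart, they ran from untreated and IFNβ, at background, through IFNβ+zVAD (6.82 and 7.33) and IFNβ+zVAD+Nec-1 (9.70 and 9.97) to LPS (11.94 and 12.20) and LPS+zVAD (14.74 and 14.89), with no overlap between these last 4. Across WT groups the IFNβ, LPS and combined treatments overlapped for Oasl1 (17.36 to 17.88) and differed more for Oas3, where IFNβ (14.70 and 15.40) was above LPS (13.74 and 14.02) by a difference that missed the threshold (-1.17 log2, adjusted p = 0.255).

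Over the 16 group means, which share slides and controls, Pearson correlations between members ran from 0.61 (Oas1b with Oasl1) to 1 after rounding (Oas1a with Oas2), with 0.93 for Oasl1 with Oasl2 and 0.65 for Oas3 with Oasl1. The gene outside these 7 most like each member was Oas1f, itself an Oas1 paralog, for Oas1a (0.996) and for Oas2 (0.999), Usp18 for Oas1g (0.997), Ifit1 for Oasl1 (0.996), Trex1 for Oasl2 (0.988), Gm5431 for Oas3 (0.986) and Fbxw7 for Oas1b (0.965). The 5 genes most like the mean of the members were Usp18, Lgals3bp, Gm8995 (each 0.994), Gm4951 and Ifi44 (each 0.992).

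The rest of the 2-5A pathway was read from a list of 8 genes, of which 7 were tested. In WT BMDMs 5 of these rose and 0 fell with LPS (16.3% and 24.8% of all genes), 3 rose and 0 fell with IFNβ (13.7% and 21.6%), and 4 rose and 0 fell with LPS+zVAD (18.3% and 32.7%). Without the receptor 1 rose and 3 fell with LPS (10.9% and 13.9%), 2 rose and 3 fell with LPS+zVAD (11% and 17.2%), and 0 were called with IFNβ (0% of all genes).

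Of the 4 further Oas1 paralogs tested, 3 were called with LPS, higher in WT and lower in Ifnar1-/- BMDMs. The share of all genes called in both of these ways was not computed. Whether the probes of these paralogs also read other Oas1 genes was not checked. Oas1f read 15.04 and 15.30 in untreated WT BMDMs and 16.71 and 16.76 after LPS (1.57 log2, adjusted p = 0.000165), and 7.03 and 7.37 falling to 6.16 and 6.43 in Ifnar1-/- BMDMs (-0.90, 0.0209). Oas1c rose by 1.17 in WT (0.0233) and fell in Ifnar1-/- BMDMs (-2.43, 0.000292). Oas1e rose by 1.25 in WT (0.0442), and in Ifnar1-/- BMDMs, where it was not above background after LPS, it was at least 3.77-fold lower (0.00677). The fourth, Oas1d, was not called: it read 11.26 and 11.59 untreated and 12.81 and 13.21 after LPS in WT BMDMs (1.59, 0.0874), and 10.25 and 9.0 against 9.74 and 8.84 in Ifnar1-/- BMDMs (-0.34, 0.821).

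By tests of the difference the response to LPS was smaller in Ifnar1-/- BMDMs for Oas1c (-3.60, adjusted p = 0.000611), Oas1f (-2.47, 0.000644) and Oas1e (0.00758), while Oas1d missed the threshold (-1.92, 0.322). The WT rises of Oas1c and Oas1e were lost without WT untreated replicate 1 (0.188 and 0.345) or WT LPS replicate 1 (0.0547 and 0.0912) or 2 (0.114 and 0.169). The Oas1e fall in Ifnar1-/- BMDMs was lost without untreated or LPS replicate 1 (0.0596 and 0.0521), and the Oas1f fall without untreated replicate 2 (0.165) or LPS replicate 1 (0.152). Abce1, which encodes an ATP-binding protein of ribosome recycling, rose with LPS in WT (0.76, 0.00336) and in Ifnar1-/- BMDMs (0.86, 0.00284). Pde12, whose product degrades 2-5A, rose in WT BMDMs (1.13, 0.0341) and read 0.71 higher in Ifnar1-/- BMDMs (0.239).

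Of the genes that feed the family, Ifnb1, which encodes IFNβ, was not above background in untreated Ifnar1-/- BMDMs (3.03 and 2.59) and had a mean of 11.57 (SD 0.11, n = 2) after LPS, a rise of at least 169-fold (adjusted p = 2.91e-05). In WT BMDMs it went from 4.22 and 5.39 to 10.38 and 9.0 (4.89 log2, 0.00078). Irf7, the interferon-induced regulator of interferon genes, rose in WT BMDMs from 12.14 and 12.57 to 15.51 and 15.28 with LPS (3.04, 1.72e-05), and in Ifnar1-/- BMDMs it read 6.55 and 6.83 untreated and 5.70 and 6.03 after LPS (-0.83, 0.178). Irf1 rose with LPS in both, by 0.96 in WT (0.0312) and 1.78 in Ifnar1-/- BMDMs (0.000989), and the WT call was lost without any 1 of the 4 arrays (0.0609 to 0.152). In the LPS-treated Ifnar1-/- BMDMs the IFNβ transcript was measured, and 2 of 7 members were called higher, where 10.9% of all genes were. That count comes from the contrast that defines the split and supports nothing. A link between the IFNβ transcript and the members was not tested.

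**Figure D4:**
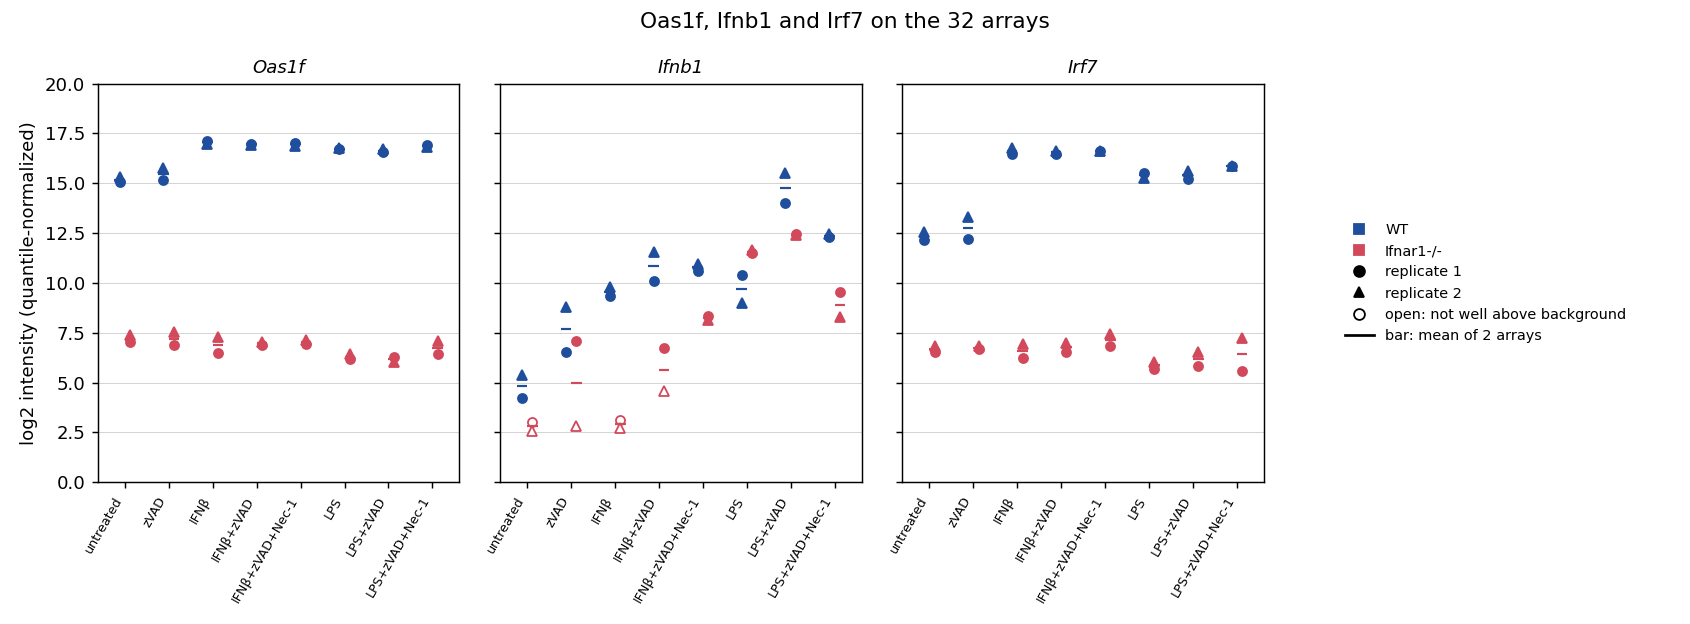
Quantile-normalized log2 intensity (y axis) of Oas1f, Ifnb1 and Irf7 in 8 treatments (x axis) of WT (blue) and Ifnar1-/- (red) BMDMs, with the 2 arrays of a group as a circle and a triangle, open where not well above background, and bars at the means. Ifnb1 rises with LPS in both genotypes, and Oas1f and Irf7 are each higher on every WT array than on any Ifnar1-/- array.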

How the data were processed

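RNA labelled with Cy3 was hybridized to 1-colour Agilent mouse arrays. The authors deposited scanner files of Feature Extraction, with an intensity per spot that the software had background-subtracted and detrended, very dim values being replaced by a surrogate, and a table of quantile-normalized log2 values. The study's text gives R 4.3.3 for its tests of differential expression and does not name the package. The deposited intensities were taken to log2, spots marked as outliers (130 to 499 per array) and controls were left out, spots of a probe were averaged, and arrays were quantile-normalized. Probes well above background on at least 50% of arrays (16 of 32) were retained, and the brightest of a gene stood for it, giving 16037 genes. Groups came from the sample titles. Over all genes, 31 comparisons were fitted with limma 3.58.1 in R 4.3.3 as 1 model of 16 groups with 16 residual degrees of freedom. Calls were made at a Benjamini-Hochberg adjusted p under 0.05. The fit was checked on simulated arrays with independent noise and no slide effect, so the check does not cover deviations that arrays of a slide share. "At least N-fold" sets the bright mean against, per array, the higher of the lowest signal well above background and the dim probe's own.

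Replicate numbers mark slides. Deviations of same-numbered arrays from their group means correlated in all 28 pairs of treatments per genotype (0.32 to 0.67 in WT, 0.17 to 0.57 in Ifnar1-/-), so the slide as a block was run as an alternative. The others were the 75th percentile, normexp (offset 50), no dim-probe filter, outliers kept, the mean of probes, only the arrays compared, 1 array or both Ifnar1-/- LPS+zVAD+Nec-1 arrays left out, and the authors' log2 table (values for 38406 probes, all matched). The members and lists were chosen with earlier results of these data known, and 2 genes of the lists are not reported here and not counted in them. The genes named are the 7 members, the genes most like them, and members of the lists.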

Additional observations from a re-analysis of the deposited data

Results flagged for a closer look

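The response of a member differed between WT and Ifnar1-/- BMDMs, by limma's test of the difference between the 2 responses, in 21 cases. It was smaller in Ifnar1-/- BMDMs in 20 and larger in 1. Over all genes, 3.6% (LPS) to 8.54% (IFNβ) were called lower in the treatments with such cases, and 11.3% higher with LPS+zVAD. Of the 20, 6 are Oas1g and add no support. All the cases share the untreated arrays, so they are not independent. The values are log2 differences, the response in Ifnar1-/- minus that in WT BMDMs.

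Oas1g differed by -3.30 with LPS, -3.46 with IFNβ, -4.25 with LPS+zVAD, -3.55 with IFNβ+zVAD, -3.48 with LPS+zVAD+Nec-1 and -3.44 with IFNβ+zVAD+Nec-1. Its probe was below background on every Ifnar1-/- array, so these differences are those of the WT response alone. Oas2 differed by -2.60 with LPS, -2.20 with IFNβ, -3.34 with LPS+zVAD, -2.49 with IFNβ+zVAD, -2.95 with LPS+zVAD+Nec-1 and -2.84 with IFNβ+zVAD+Nec-1. Oas3 differed by -6.01 with LPS, -3.56 with IFNβ, -5.77 with LPS+zVAD, -3.88 with IFNβ+zVAD, -3.85 with LPS+zVAD+Nec-1 and -3.41 with IFNβ+zVAD+Nec-1.

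Oasl2 differed by -2.40 with IFNβ and -2.08 with IFNβ+zVAD, and neither call lasted when any 1 of the arrays was left out. Oasl1 was the exception in direction, at a fitted 7.07 with LPS+zVAD, over an untreated Ifnar1-/- level that was not above background.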

How the results depend on the processing

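Of 75 called differences of single members, 53 kept their direction and call under every alternative, and of 90 called differences of single pathway genes 52 did. Of the results run, 0 reversed. Counts of members called moved as follows, from the value in the report. With the slide as a replicate block no call was lost, and counts went from 3 to 5 for Ifnar1-/- LPS+zVAD over untreated, 1 to 2 for Ifnar1-/- IFNβ+zVAD+Nec-1 over untreated, 3 to 5 for the genotype difference in the response to LPS, IFNβ+zVAD+Nec-1 and LPS+zVAD+Nec-1, 4 to 7 for that to IFNβ, 1 to 2 for WT LPS+zVAD+Nec-1 over LPS+zVAD, 0 to 2 for Ifnar1-/- LPS+zVAD over LPS and 0 to 1 for Ifnar1-/- IFNβ+zVAD+Nec-1 over IFNβ+zVAD. Over untreated WT BMDMs they went from 5 to 6 for LPS and LPS+zVAD+Nec-1, 6 to 7 for IFNβ, LPS+zVAD and IFNβ+zVAD and 5 to 7 for IFNβ+zVAD+Nec-1. They went from 4 to 6 for the differences with LPS+zVAD and IFNβ+zVAD, 3 to 4 for Ifnar1-/- LPS over untreated and 2 to 3 for Ifnar1-/- LPS+zVAD+Nec-1 over LPS+zVAD. With only the arrays compared they went to 0 for Ifnar1-/- LPS+zVAD+Nec-1 over untreated, WT and Ifnar1-/- LPS+zVAD+Nec-1 over LPS+zVAD and WT LPS over IFNβ, to 1 for WT and Ifnar1-/- LPS+zVAD over LPS, and to 5 for the difference with IFNβ+zVAD+Nec-1. The authors' table gave 0 for WT LPS+zVAD over LPS, WT LPS+zVAD+Nec-1 over LPS+zVAD and WT LPS over IFNβ, and 1 for Ifnar1-/- LPS+zVAD+Nec-1 over LPS+zVAD. The 75th percentile gave 1 for WT LPS+zVAD over LPS, and normexp 1 for Ifnar1-/- LPS+zVAD over LPS and 1 for Ifnar1-/- LPS+zVAD+Nec-1 over LPS+zVAD. The mean of probes gave 5 for the differences with IFNβ+zVAD+Nec-1 and LPS+zVAD+Nec-1. Without both Ifnar1-/- LPS+zVAD+Nec-1 arrays the counts were 2 for Ifnar1-/- IFNβ+zVAD+Nec-1 over untreated, 5 for the difference with LPS and 2 for WT LPS over IFNβ. The other probes of Oas1a and Oas1b, chosen after seeing the data, gave 2, 5, 5, 0 and 0 for Ifnar1-/- IFNβ+zVAD+Nec-1 over untreated, the differences with IFNβ+zVAD+Nec-1 and LPS+zVAD+Nec-1, WT LPS+zVAD+Nec-1 over LPS+zVAD and WT LPS over IFNβ. Leaving out 1 array at a time gave 3 to 5 for WT LPS over untreated, 2 to 3, 1 to 3, 2 to 4 and 3 to 5 for the differences with LPS, IFNβ, IFNβ+zVAD+Nec-1 and LPS+zVAD+Nec-1, 0 to 1 for Ifnar1-/- zVAD and IFNβ+zVAD+Nec-1 over untreated, 1 to 4 for Ifnar1-/- LPS+zVAD+Nec-1 over untreated, 1 to 2 for WT LPS+zVAD over LPS, 0 to 1 for WT LPS over IFNβ, and 0 to 2 and 0 to 3 for LPS+zVAD+Nec-1 over LPS+zVAD in WT and Ifnar1-/- BMDMs. A group left with 1 array was assumed to vary like the others. The 75th percentile moved the median of all genes from -0.15 to 0.12 log2 with LPS+zVAD, from -0.08 to 0.08 with LPS and from -0.17 to -0.02 with IFNβ in WT BMDMs. Apart from the constructions named here (fewer arrays, another probe), the causes were not tested. Signal near background limits Oas1g, and untreated Oasl1, in Ifnar1-/- BMDMs.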

Other observations

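A list of 8 other genes tied to the sensing of double-stranded RNA, not all of them sensors, was chosen with earlier results of these data known. Of these, 7 rose and 1 (Mavs) fell in WT BMDMs with LPS (16.3% and 24.8% of all genes) and with IFNβ (13.7% and 21.6%). In Ifnar1-/- BMDMs 2 rose and 0 fell with LPS (10.9% and 13.9%) and 0 were called with IFNβ (0%). The 2 that rose without the receptor were Ifih1, which encodes the RNA helicase MDA5 (3.35 log2, standard error 0.64, adjusted p = 0.000868 from limma), and Zbp1, a sensor of Z-form nucleic acids (3.47, adjusted p = 0.000214). Their responses to LPS did not pass the test of a difference between the genotypes (-0.14 log2 each, adjusted p = 0.976 and 0.971). Eif2ak2, which encodes the kinase PKR, rose by 3.13 log2 with LPS in WT (2.09e-08) and read 0.28 in Ifnar1-/- BMDMs (0.421), and the difference was -2.84 (2.74e-05). Tlr3 rose by 3.24 in WT BMDMs (1.56e-05) and read -0.78 in Ifnar1-/- BMDMs (0.24).

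Of 10 genes of interferon signalling, 5 rose and 0 fell with LPS in WT BMDMs, and 5 rose and 1 (Irf3) fell with IFNβ, beside the same shares of all genes. In Ifnar1-/- BMDMs 2 rose with LPS (Ifnb1 and Irf1) and 0 were called with IFNβ. Untreated Ifnar1-/- BMDMs were lower than WT in 5 of the 10 (3.35% of all genes), among them Irf7 (-5.67 log2, adjusted p = 5.43e-08), Irf9 (-2.86, 4.84e-07) and Stat2 (-2.28, 0.000573), a difference that cannot be told apart from one between slides.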
